A study of Xenopus tropicalis with 52 samples.

Results

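The *ventx* homeobox genes and the Oct4-class POU genes were followed through the first 9.5 h of development in embryos of the frog *Xenopus tropicalis*. Members were taken by name, as every row whose name begins with *ventx* or *pou5f* or is one of the older Oct names. The same 9 genes were found in both deposited tables, 6 *ventx* genes and 3 Oct4-class genes, among 21750 gene rows of Series 1 and 2 and 20193 gene rows of Series 3. They were *oct25* (Xetrov72003467), *oct60* (Xetrov72003431), *oct91* (Xetrov72003451), *ventx1.1* (Xetrov72026749), *ventx1.2* (Xetrov72026836), *ventx2.1* (Xetrov72026459), *ventx2.2* (Xetrov72026460), *ventx3.1* (Xetrov72026781) and *ventx3.2* (Xetrov72026724).

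The 52 RNA-seq libraries came from whole embryos with no treatment or mutation in the labels, each series being the offspring of a single female. Series 1 comprised 7 polyA+ libraries from 0 to 3.0 h post fertilisation (hpf). Series 2 took over at 2.5 hpf and ran to 9.5 hpf, with 17 polyA+ libraries at 15 time points, biological replicates being available at 4.5 and 6.5 hpf. Series 3 held 19 polyA+ libraries, the last at 9.0 hpf, and 9 hourly Ribo-Zero libraries, the last at 8.0 hpf and all made from the same RNA as the polyA+ libraries of those hours. PolyA+ libraries hold RNA selected by its polyA tail, and Ribo-Zero libraries hold RNA with or without a tail after ribosomal RNA has been depleted. Pools of 50 embryos were used in Series 1 and 2 and pools of 10 in Series 3, which also came from another frog colony and was made with another kit. A cleavage cycle took 20 min in the first pair of series but 25 min in the third, so times of Series 3 were also multiplied by 0.8 to set them beside Series 2.

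Ventx proteins are homeodomain repressors that act downstream of BMP signalling on the ventral side of the frog embryo, where they keep dorsal genes off, and in *Xenopus laevis* they also hold embryonic cells in an uncommitted state, a role that NANOG has in mammals. Oct25, Oct60 and Oct91 are the frog relatives of mammalian OCT4 (POU5F1), a core factor of pluripotent stem cells, and they hold back germ layer differentiation. The early embryo lives largely on RNA stored in the egg, and large-scale transcription of its own genome is a mark of the mid-blastula transition (MBT). The paper describes a broad wave of such transcription that sets in before the MBT and runs past it. A transcript can therefore be supplied maternally, switched on zygotically, or both.

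In the RefSeq table of the UCB_Xtro_10.0 assembly, *oct91*, *oct25* and *oct60* are named *pou5f3.1*, *pou5f3.2* and *pou5f3.3*. These 3 genes stand next to each other with 0 other genes between them. The 6 *ventx* genes likewise follow each other on a single chromosome in the order *ventx3.2*, *ventx1.2*, *ventx3.1*, *ventx2.2*, *ventx1.1* and *ventx2.1*, again with 0 other genes between them. That assembly is not the one used for mapping, so positions are not given. Reads that matched more than 1 gene had been discarded, so the levels of such close relatives are uncertain where their transcripts are alike.

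Levels are given as reads per 25000000 mapped reads of a library, called reads here. Total counts per library were 19925593 to 33907947 in Series 1 and 2 and 4539916 to 17998536 in Series 3. A count of 0 allows up to 3 counts, which corresponds to 2.22 to 4.03 reads in Series 1 and 2 and 4.17 to 19.5 reads in Series 3, for counting error only. Time points without a replicate have no error of their own, and neighbouring libraries stood in for replicates in the tests, so the spread includes the trend inside a window. In whole embryos, fewer expressing cells and less RNA per cell cannot be told apart. Stage was checked with lists of maternal and zygotic marker genes. All 8 maternal markers had at least 10 counts in the first library of each set, whereas 0 of 6 zygotic markers did, against 6 of 6 in the last libraries of Series 2 and Series 3. All 8 maternal markers also had at least 10 counts in the last library of each set, so by this count only the zygotic list separates the stages. The tables of Series 1 and 2 and of Series 3 were normalised separately, so their values are set side by side without a test.

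Of the 9 members, *oct60* and *oct25* were present in the egg. *oct60* is the Oct4 relative known as a maternal factor of the oocyte. In Series 1, *oct60* measured 18203 reads at 0 hpf, between 61330 and 67198 reads in the 5 libraries from 0.5 to 2.5 hpf, and 31566 reads at 3.0 hpf. The first and last libraries were the low ones. A straight line through all 7 libraries gave a slope of -0.19 ± 0.25 (SE) on the log2 scale per hour, which was not called (adjusted p = 0.541, edgeR quasi-likelihood test). This slope turned with the choice of libraries and of scaling. It was -0.58 per hour without the library of 0 hpf (edgeR adjusted p = 0.0037), 0.11 per hour without that of 3.0 hpf and 0.073 per hour with libraries scaled to their totals.

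In Series 2, the offspring of another female, *oct60* was lower at the same hours. It measured 10930 and 9034 reads at 2.5 and 3.0 hpf, where Series 1 had 61330 and 31566 reads. The difference, Series 2 minus Series 1, was -2.43 ± 0.36 on the log2 scale (edgeR adjusted p = 9.0e-04). It made *oct60* 1 of the 2 testable members called in this comparison. Each series is 1 clutch, and its 2 neighbouring hours stood in for replicates. The error and p thus cover scatter between libraries and hours, not between females. The female and the making of the libraries cannot be told apart here. Of 12435 genes tested, 25.8% were called higher and 26.3% lower in Series 2, so a call here is common. The other member, *oct25*, had 2525 and 2899 reads in Series 1 and 2463 and 2571 reads in Series 2, a difference of -0.29 ± 0.13 (adjusted p = 0.0957).

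After the overlap, *oct60* was then lost from polyA+ RNA of Series 2. It held 4631 to 7460 reads from 4.0 to 6.0 hpf, and the replicates differed by a factor of 1.53 at 4.5 hpf and 1.41 at 6.5 hpf. It then went from 1906 reads at 7.0 hpf to 883 at 7.5, 557 at 8.0, 249 at 8.5, 146 at 9.0 and 78.5 reads at 9.5 hpf, which is 0.718% of the level at 2.5 hpf. Every step after 6.0 hpf was downward.

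In Series 3 the loss came at the start. PolyA+ *oct60* measured 4199 reads at 0 hpf, 724 at 0.5, 606 at 1.0 and 137 reads at 1.5 hpf. The series did not decline evenly, since libraries such as those of 2.0 hpf (1263 reads) and 6.0 hpf (330 reads) stood above both neighbours. From 7.0 hpf on the level was between 5.55 and 85.1 reads. The slope from 0 to 3.0 hpf was -0.91 ± 0.31 per hour and was not called (edgeR adjusted p = 0.0524), though it was with RLE normalisation (-0.93, adjusted p = 0.0462). It was -0.22 per hour without the library of 0 hpf (adjusted p = 0.588).

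Ribo-Zero libraries made from the same RNA showed no such loss. There *oct60* measured 3249, 2575, 2839, 2872 and 2680 reads from 0 to 4.0 hpf, 2232 reads at 5.0 hpf, and 2909, 3483 and 4195 reads at 6.0, 7.0 and 8.0 hpf. The lowest library was that of 5.0 hpf and the highest was the last. The ratio of polyA+ to Ribo-Zero reads was 1.29 (95% exact interval 1.21 to 1.38) at 0 hpf, 0.235 at 1.0 hpf, 0.116 at 4.0 hpf, 0.0290 at 5.0 hpf and 0.0178 (0.00966 to 0.0300) at 8.0 hpf. It did not fall evenly. The ratio was 0.445 (0.402 to 0.492) at 2.0 hpf and 0.114 (0.0943 to 0.136) at 6.0 hpf, each above that of the hour before. The ratio was below that of *oct60* in 74.1% of genes with at least 10 counts in both libraries at 0 hpf. This share was 29.9% at 1.0 hpf, 41.0% at 2.0 hpf, 1.77% at 5.0 hpf, 7.94% at 6.0 hpf and 0.422% at 8.0 hpf. Over the same hours the median ratio of all genes lay between 0.507 and 0.840.

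**Figure D1:**
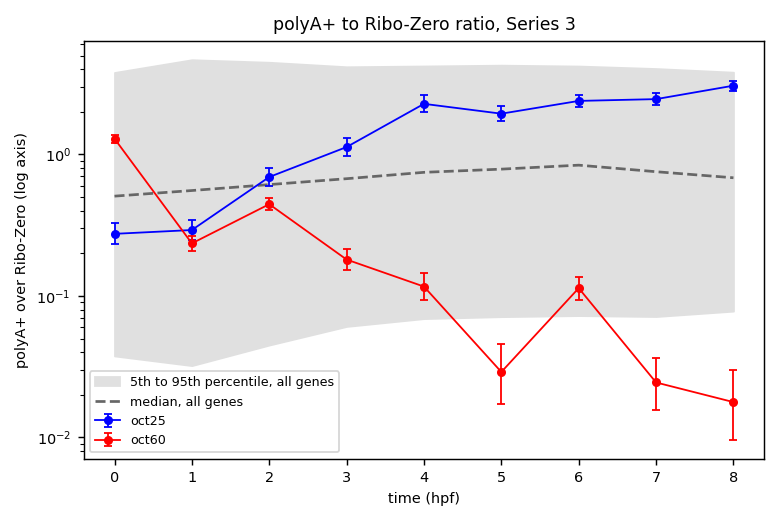
Ratio of polyA+ to Ribo-Zero reads in Series 3 for *oct25* (blue) and *oct60* (red) at whole hours, on a log axis with 95% exact counting intervals as bars. The grey band is the 5th to 95th percentile of all genes and the dashed line their median. *oct60* starts above the median with 1.29 and ends below the band with 0.0178, while *oct25* goes from 0.275 to 3.06.

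*oct25*, which in *Xenopus laevis* is present maternally and again in the blastula and gastrula, went the other way in polyA+ RNA during cleavage. In Series 1 it measured 230, 612, 537, 2305, 2139, 2525 and 2899 reads from 0 to 3.0 hpf. The libraries from 1.5 hpf on were all above the first 3. The slope was 0.95 ± 0.22 per hour on the log2 scale (adjusted p = 0.0038), so 1 of the 2 testable members was called, among 32.0% of genes with a positive and 29.0% with a negative slope of 11856 tested.

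Series 3 gave a similar course at a lower starting rate. PolyA+ *oct25* measured 294, 292 and 322 reads at 0, 0.5 and 1.0 hpf, then 540, 829, 1066 and 1473 reads at 1.5, 2.0, 2.5 and 3.0 hpf. Each library after 0.5 hpf was above the one before it. The slope was 0.74 ± 0.09 per hour (adjusted p = 0.0011), and again 1 of 2 testable members was called, where 16.5% of 10349 genes had a called positive and 16.1% a called negative slope.

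In Ribo-Zero RNA, *oct25* stayed between 1071 and 1345 reads in the 7 libraries from 0 to 6.0 hpf. It then measured 2808 reads at 7.0 hpf and 5044 reads at 8.0 hpf. Its change in the Ribo-Zero rise, described below, was 1.46 ± 0.42 on the log2 scale and was not called (edgeR adjusted p = 0.105). The ratio of polyA+ to Ribo-Zero reads was 0.275 (0.231 to 0.325) at 0 hpf, 0.292 at 1.0 hpf, 0.693 at 2.0 hpf, 1.13 at 3.0 hpf and 2.28 (1.98 to 2.63) at 4.0 hpf. The ratio lay below the median of all genes at 0 hpf and above it, beyond counting error, from 3.0 hpf. At 2.0 hpf its interval (0.603 to 0.796) held the median, 0.612. The difference in slope from 0 to 3.0 hpf, Ribo-Zero minus polyA+, was -0.63 ± 0.14 per hour (adjusted p = 0.0258). With the time point as a block, since each pair of libraries shares its RNA, the estimate was -0.63 and the call was lost (adjusted p = 0.0878). For *oct60* the difference was 0.93 ± 0.32 per hour (edgeR adjusted p = 0.0839), and 0.18 without the polyA+ library of 0 hpf.

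The early slope difference was called in 1 of 2 testable members, against 8.27% of 11521 genes with a called positive and 9.50% with a called negative difference. Leaving out a library took the number of called members from 1 to 0 for 6 of the 8 libraries, and to 2 without the polyA+ library of 1.0 hpf. From 5.0 to 8.0 hpf the difference was called in 0 of 9 members with edgeR and 0 with DESeq2, and 0 had an unadjusted p under 0.05. The background was 1.65% positive and 3.83% negative of 11382 genes. With the time point as a block *oct25* alone was called (-0.34 per hour, edgeR adjusted p = 0.0326), and without the polyA+ library of 5.0 hpf *oct25* (-0.70) and *oct60* (1.31) were.

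The other 7 members, *oct91* and the 6 *ventx* genes, were absent or at trace level in the earliest libraries. The 6 *ventx* genes had 0 counts in all 7 libraries of Series 1. *oct91* had 0 to 2 counts in each of them. In Series 2 the 7 genes together reached at most 3.87 reads for any gene in the 4 libraries from 2.5 to 4.0 hpf. In Series 3 polyA+ RNA all 7 had 0 counts in every library from 0 to 4.5 hpf. These libraries do not cover all the time before the MBT. By the staging in the paper, the Series 3 library of 6.0 hpf was still ahead of it. There polyA+ *ventx2.2* already had 772 reads and *ventx2.1* 289 reads, and the rest had 38.8 to 92.3 reads. The Series 2 replicates at 4.5 hpf, described below, also came before the MBT.

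**Figure D2:**
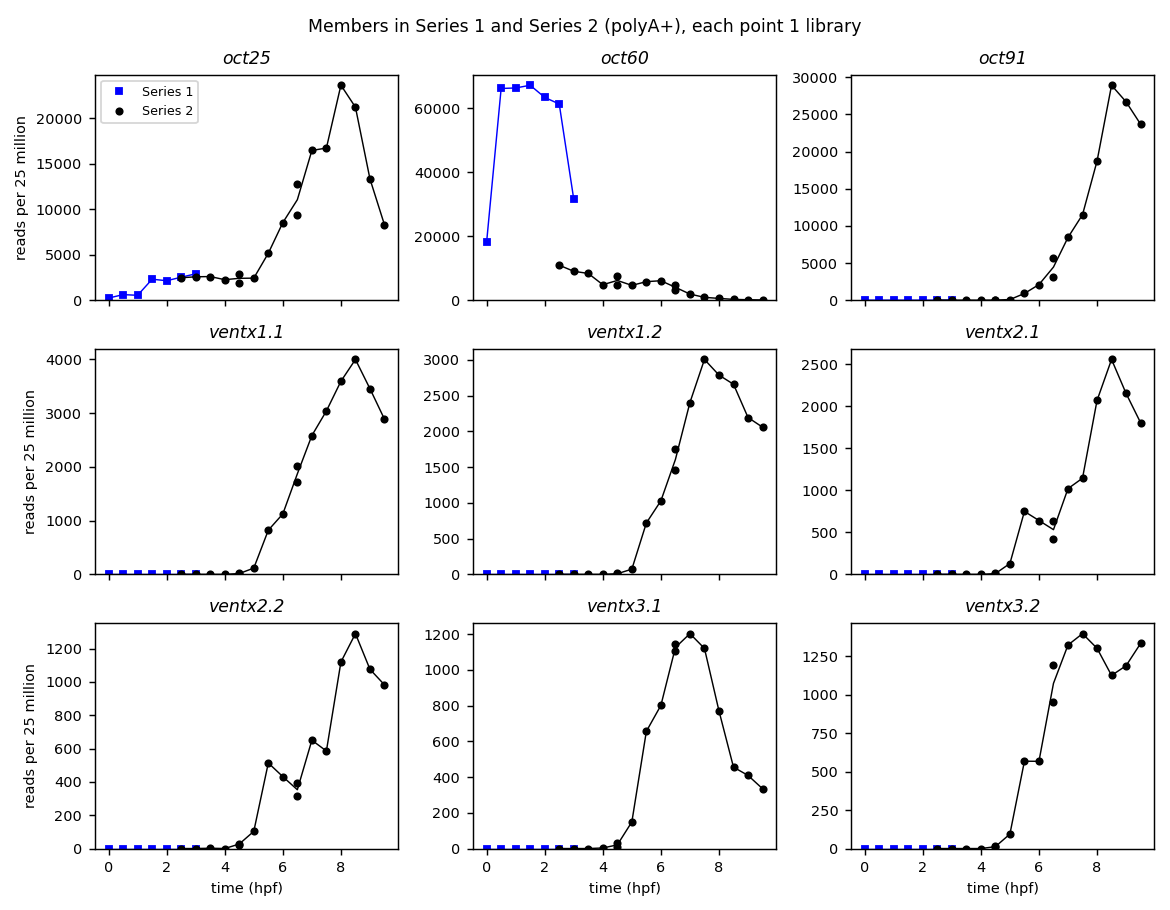
Reads per 25000000 mapped reads of each member against time in Series 1 (blue squares) and Series 2 (black circles), on linear axes that start at 0. Each point is a library and the line joins time point means. *oct60* is highest in Series 1, at 67198 reads, whereas *oct91* and the *ventx* genes leave 0 after 4.0 hpf of Series 2.

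In Series 2 the first libraries with clear signal were the replicates at 4.5 hpf. *ventx2.2* had 30.0 and 24.1 reads there, the closest agreement among the 7, with 35 and 29 counts. *ventx1.1* had 19.7 and 10.8 reads, *ventx3.1* had 7.72 and 33.3 reads, and *ventx2.1* had 0 and 18.3 reads. Since the replicates disagreed up to 4.31-fold, and for *ventx2.1* between 0 and 22 counts, the order of the genes at 4.5 hpf is not resolved.

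At 5.0 hpf all 7 genes were between 72.7 reads (*ventx1.2*) and 149 reads (*ventx3.1*). At 5.5 hpf they were between 514 reads (*ventx2.2*) and 903 reads (*oct91*). All 7 thus went from at most 33.3 reads to at least 514 reads within 1 h.

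The run rule of the study asks for at least 3 successive points that each exceed the last by more than a chance step. A change of at least 10-fold after adding 10 reads was also required. By this rule as rebuilt here, 7 of 9 members had a rising onset in Series 2. In all, 1.53% of 21750 genes (333) had one. The paper, from Series 1 and 2 together, counts more genes in its second wave alone, so this share is not the study's own. The onset was at 4.0 hpf for *oct91*, *ventx1.1*, *ventx2.2* and *ventx3.2* and at 4.5 hpf for *ventx1.2*, *ventx2.1* and *ventx3.1*, a difference of 1 sampling interval. The run of *oct91* continued to 8.5 hpf and spanned 2894-fold. Those of the 6 *ventx* genes ended at 5.5 hpf with 21.8-fold (*ventx3.1*) to 83.2-fold (*ventx1.1*). These ends depended on the chance step. With a smaller step the run of *ventx1.1* continued to 8.5 hpf (401-fold) and that of *ventx1.2* to 7.5 hpf (159-fold). The run of *ventx3.2* then continued to 7.0 hpf (133-fold), and that of *ventx3.1* went from 4.0 to 6.5 hpf (86.7-fold). The runs of *oct91*, *ventx2.1* and *ventx2.2* stayed the same.

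In Series 3 polyA+ RNA the same genes appeared between 5.0 and 6.0 hpf, which is 4.0 to 4.8 hpf on the scale of Series 2. *ventx2.2* was the first with any count, at 6.81 reads (2 counts) at 5.0 hpf, 65.1 reads at 5.5 hpf and 772 reads at 6.0 hpf. A count of 0 allows up to 10.2 reads in the library of 5.0 hpf, so the order there is not resolved. At 5.5 hpf *ventx3.2* had 7 counts, *ventx3.1* 4 and *ventx1.1* 3, whereas *ventx1.2*, *ventx2.1* and *oct91* had 0 counts. At 6.0 hpf *ventx2.1* had 289 reads and the other 5 had 38.8 to 92.3 reads.

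An onset was called for 6 of 9 members in Series 3 polyA+ RNA, against 1.62% of 20193 genes. It was at 5.0 hpf for *ventx1.1*, *ventx2.2* and *ventx3.2* and at 5.5 hpf for *oct91*, *ventx1.2* and *ventx2.1*. *ventx3.1* had no run by this rule, but had one when the intercept of the chance step was lowered from 0.5 to -0.5 and when reads were TMM scaled. In Ribo-Zero RNA 7 of 9 members had an onset, against 1.57% of genes, at 6.0 hpf for *ventx1.2* and at 5.0 hpf for the other 6. The 2 members without an onset in any set were *oct25* and *oct60*.

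**Figure D3:**
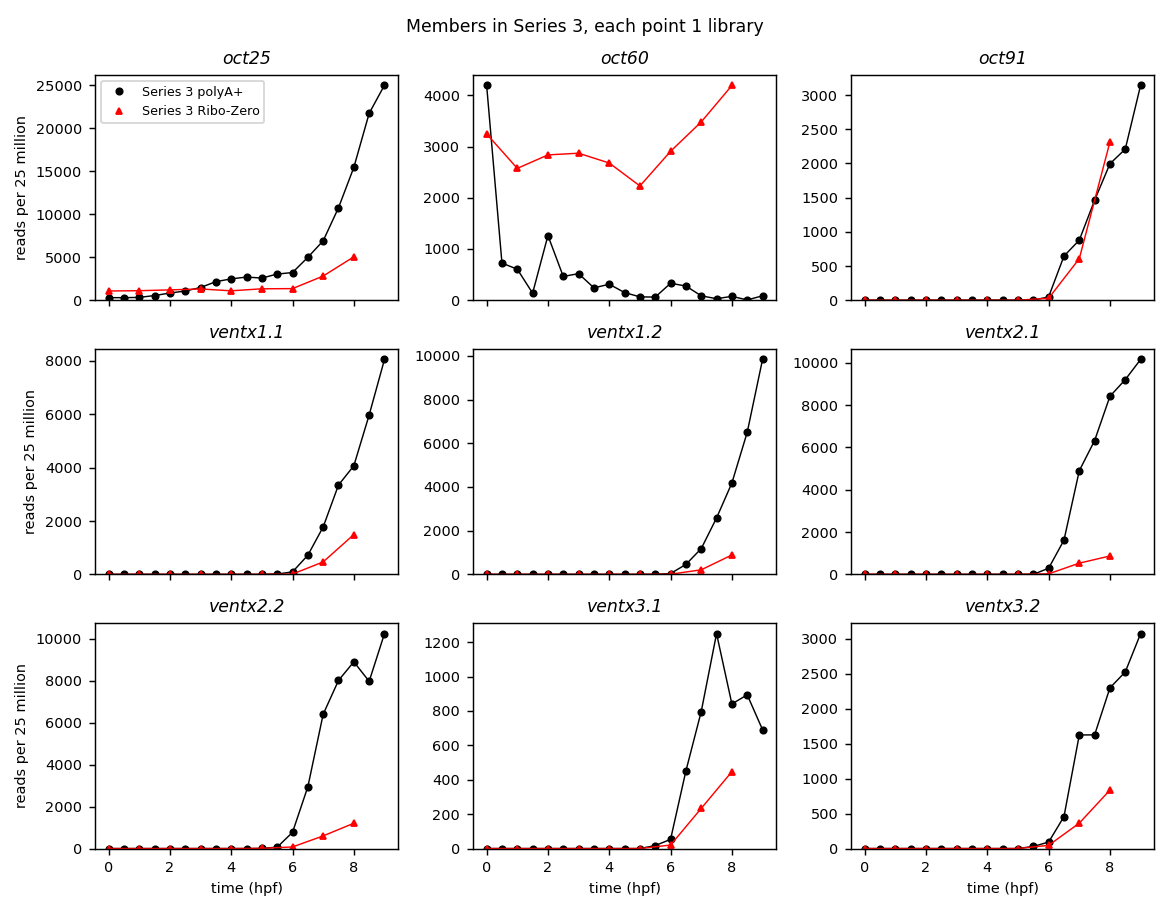
Reads per 25000000 mapped reads of each member against time in Series 3 polyA+ (black circles) and Ribo-Zero libraries (red triangles), on linear axes that start at 0, each point a library. PolyA+ *oct60* is lost after 0 hpf while the Ribo-Zero values stay between 2232 and 4195 reads. The *ventx* genes are above 0 in every library from 6.0 hpf of both library types.

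The rise across activation was tested between the windows 2.5 to 3.5 hpf and 8.5 to 9.5 hpf in Series 2, with 3 libraries each. For *oct91* the reads were 2.44, 0.784 and 3.87 before and 28931, 26702 and 23688 after, a ratio of 11624 with a counting interval of 5899 to 26926. *ventx1.1* went from 0 in all 3 libraries to 4000, 3456 and 2888 reads, at least 4026-fold higher than the limit of 3 counts over the early window. *ventx2.2* had 2 counts in the early window and 1290, 1076 and 982 reads in the late one, a ratio of 1955 (541 to 16147). No member's early and late windows overlapped.

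For the remaining *ventx* genes, all at 0 counts early, the late window was at least 2689-fold higher for *ventx1.2*, 2535-fold for *ventx2.1*, 1441-fold for *ventx3.2* and 468-fold for *ventx3.1*. *oct25* went from 2544 ± 71.2 to 14273 ± 6517 reads (mean and SD, n = 3 libraries), a log2 change of 2.75 ± 0.28 (SE, adjusted p = 2.2e-05). *oct60* fell by 5.66 on the log2 scale (adjusted p = 1.6e-06). In all, 8 of 9 members rose and 1 fell, where 41.3% of 13688 genes rose and 37.7% fell. These shares are large, so the count by itself says little about the family. *oct91* and the *ventx* genes also passed the filter on low counts only through the late libraries, so they could be called only as higher. The median log2 change of all genes was 0.08.

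Between 3.0 to 4.0 hpf and 8.0 to 9.0 hpf of Series 3 polyA+ RNA, 8 of 9 members were called higher and 1 lower, against 29.6% and 23.7% of 10298 genes. The 7 zygotic genes had 0 counts in all 3 early libraries and passed the filter only through the late ones. They could thus be called only as higher, so their part of this count is no result about them. The late window was at least 2875-fold higher for *ventx2.1* (8414, 9201 and 10154 reads), 2820-fold for *ventx2.2* and 778-fold for *oct91* (1996, 2210 and 3144 reads). It was at least 2207-fold higher for *ventx1.2*, 1924-fold for *ventx1.1*, 825-fold for *ventx3.2* and 244-fold for *ventx3.1*. *oct25* rose by 3.62 ± 0.20 on the log2 scale (adjusted p = 4.2e-09), and *oct60* fell by 2.38 (adjusted p = 0.0037).

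In Ribo-Zero RNA, with the windows 2.0 to 4.0 hpf and 6.0 to 8.0 hpf, 0 of 6 testable members were called by edgeR, although all 6 had an unadjusted p under 0.05 and DESeq2 called 5. The background was equally low, 0.616% of 11520 genes higher and 0.139% lower. The late window spanned the onset itself, with *oct91* at 28.0, 607 and 2315 reads, and *ventx1.1*, *ventx1.2* and *ventx3.1* did not pass the filter of 10 counts in 3 libraries. With that filter lowered to 2 libraries and the library of 6.0 hpf left out, a choice made after the data were seen, all 9 members were called. The zygotic genes had 0 counts early here too, so they could be called only as higher.

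After the common start, the courses of the 7 zygotic members in Series 2 parted. *ventx3.1* was early and transient, with 802 reads at 6.0 hpf, 1203 reads at 7.0 hpf, 456 at 8.5 hpf and 335 reads at 9.5 hpf, 27.8% of its highest level. It reached 50% of that level at 5.45 hpf. *oct91* was late, reaching 50% of its highest level at 7.71 hpf, with 2098 reads at 6.0 hpf, 8446 at 7.0 hpf and 28931 at 8.5 hpf. So were *ventx2.1* and *ventx2.2*, with 50% points at 7.57 and 7.56 hpf. These lie less than a sampling interval before that of *oct91*, so this order is not resolved.

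*ventx1.1* and *ventx1.2* lay in between. Their 50% points were at 6.59 and 6.41 hpf and their highest levels 4000 reads at 8.5 hpf and 3004 reads at 7.5 hpf. With TMM scaled reads the 50% point of *ventx1.1* moved to 6.90 hpf. *ventx3.2* had its 50% point at 6.13 hpf and then stayed between 1126 and 1398 reads from 7.0 to 9.5 hpf.

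The *ventx2* genes reached their highest levels in Series 2 after a dip. *ventx2.1* had 750 reads at 5.5 hpf, 641 at 6.0 hpf, 426 and 638 in the replicates at 6.5 hpf, and then 1021, 1145, 2072 and 2560 reads at 7.0, 7.5, 8.0 and 8.5 hpf. *ventx2.2* had 514 reads at 5.5 hpf, 432 at 6.0 hpf, 314 and 392 in the replicates, and 1290 reads at 8.5 hpf. In both genes each replicate at 6.5 hpf was below the library of 6.0 hpf, and that was below the library of 5.5 hpf. The dip was not tested, and the replicates differed by a factor of 1.50 for *ventx2.1* and 1.25 for *ventx2.2*. Series 3 polyA+ RNA showed no dip in *ventx2.1* from 6.0 to 9.0 hpf, with 289, 1614, 4897, 6322, 8414, 9201 and 10154 reads. There *ventx2.2* had 8893 reads at 8.0 hpf, 7963 at 8.5 hpf and 10235 reads at 9.0 hpf, a lower value in a single library.

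**Figure D4:**
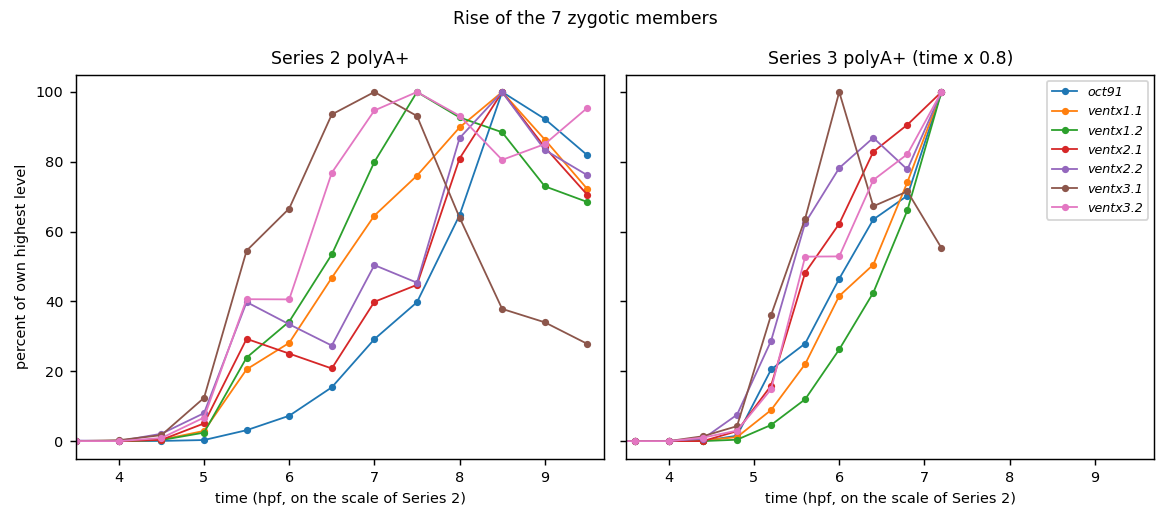
Level of *oct91* and the 6 *ventx* genes as percent of each gene's own highest level, against time, in Series 2 (left) and in Series 3 polyA+ RNA with times multiplied by 0.8 (right). Points are time point means. In Series 2 *ventx3.1* is first, with 50% at 5.45 hpf. *oct91* (7.71 hpf), *ventx2.1* (7.57 hpf) and *ventx2.2* (7.56 hpf) are late there and lie within a sampling interval. In Series 3 *ventx1.2* has the latest value.

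On the scaled times of Series 3 the 50% points lay closer together. They were 5.40 hpf for *ventx3.1*, 5.45 for *ventx2.2*, 5.57 for *ventx3.2*, 5.65 for *ventx2.1*, 6.08 for *oct91*, 6.38 for *ventx1.1* and 6.53 hpf for *ventx1.2*. All of these genes but *ventx3.1* were still at their highest level in the last library, so their 50% points are lower bounds. *ventx3.1* again had the lowest value, but 5.40 and 5.45 hpf differ by far less than a sampling interval, so this order is not resolved. In Ribo-Zero RNA the scaled 50% point was 5.45 hpf for *ventx2.1* and 5.56 hpf for *ventx3.1*. *ventx3.1* was again transient in polyA+ RNA, with 1250 reads at 7.5 hpf and 691 reads at 9.0 hpf, 55.3% of its highest level. In Ribo-Zero RNA it was highest in the last library, at 8.0 hpf. With TMM scaled reads the 50% point of *ventx3.2* moved from 6.96 to 7.51 hpf before scaling of the times.

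Shares of the summed *ventx* reads changed with time, and not in the same way in both series. They are read here only over time within a gene, because transcript lengths were not at hand. In Series 2 *ventx2.1* and *ventx2.2* held 18.6% and 12.7% of the *ventx* reads at 5.5 hpf, 8.11% and 5.38% at 6.5 hpf and 21.2% and 10.7% at 8.5 hpf. In Series 3 polyA+ RNA *ventx2.2* held 57.7% at 6.0 hpf and 24.3% at 9.0 hpf, while *ventx1.2* went from 2.90% to 23.4%. The female, colony, kit, pool size, sequencer and read length (39 bp in Series 2, 50 bp in Series 3) differ between these series and cannot be told apart.

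Among the Oct4-class genes of Series 2, the gene with most reads changed over time. *oct60* made up 81.6% of their summed reads at 2.5 hpf, *oct25* 61.4% at 7.0 hpf and *oct91* 73.9% at 9.5 hpf. In Series 3 polyA+ RNA *oct60* made up 93.5% at 0 hpf and *oct25* 94.8% at 4.5 hpf and 88.6% at 9.0 hpf, when *oct91* made up 11.1%. In Ribo-Zero RNA of that clutch *oct60* still made up 36.3% at 8.0 hpf.

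Whether members went on rising was tested in Series 2 between 6.5 to 7.0 hpf and 8.5 to 9.5 hpf, with 3 libraries each. Of 9 members, 6 rose, 2 fell and 1 was not called, where 32.6% of 13816 genes rose and 34.7% fell. *oct91* had 5732, 3179 and 8446 reads in the earlier and 28931, 26702 and 23688 in the later window, a log2 change of 2.56 ± 0.32 (adjusted p = 1.8e-04). *ventx2.1* rose by 2.01 ± 0.30, *ventx2.2* by 1.67 ± 0.27 and *ventx1.1* by 1.07 ± 0.18 on this scale, and their windows did not overlap either.

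The rises of *ventx1.2* (0.67 ± 0.20, adjusted p = 0.0167) and *ventx3.2* (0.45 ± 0.17, adjusted p = 0.0461) were small, and the reads of their windows overlapped. Both calls were lost when libraries were scaled to their totals (0.30 and 0.07), which moved the median log2 change of all genes from -0.03 to -0.40, and without either replicate of 6.5 hpf (0.59 and 0.50 for *ventx1.2*, 0.44 and 0.31 for *ventx3.2*). That of *ventx3.2* was also lost without the libraries of 9.0 or 9.5 hpf (0.51 and 0.38) and with no filter on low counts (0.39). *ventx3.1* had 1145, 1107 and 1203 reads earlier and 456, 409 and 335 later, a fall of 1.16 ± 0.16 on the log2 scale (adjusted p = 2.8e-04). *oct60* fell by 4.04 ± 0.46. *oct25*, which peaked at 23633 reads at 8.0 hpf and had 8283 reads at 9.5 hpf, was not called (0.51 ± 0.32, adjusted p = 0.185), and without the library of 9.5 hpf its change was 0.81 (adjusted p = 0.0267).

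**Figure D5:**
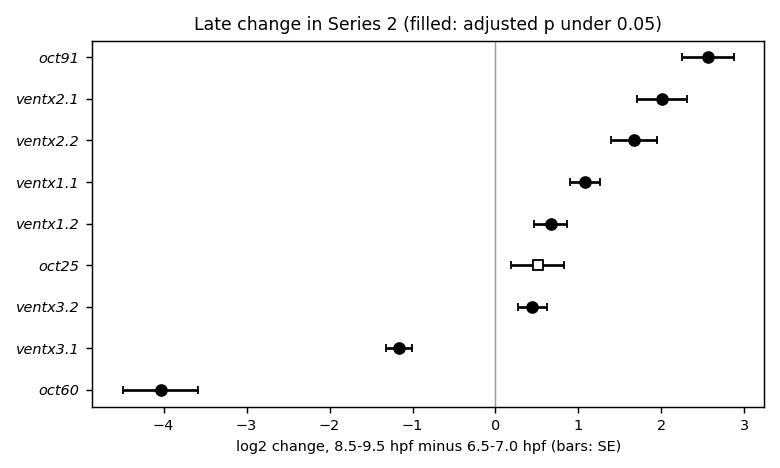
Log2 change of each member in Series 2 from 6.5 to 7.0 hpf to 8.5 to 9.5 hpf, with the standard error as bars, from 3 libraries in each window. Filled symbols passed an adjusted p of 0.05 and the open symbol, *oct25*, did not. *oct91* rose most, by 2.56, while *ventx3.1* and *oct60* fell.

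PolyA+ and Ribo-Zero RNA gave the zygotic genes unlike ratios during the rise. At 8.0 hpf the ratio of polyA+ to Ribo-Zero reads was 9.68 (8.11 to 11.6) for *ventx2.1*, 7.37 for *ventx2.2*, 4.71 for *ventx1.2*, 2.75 for *ventx3.2*, 2.73 for *ventx1.1*, 1.88 for *ventx3.1* and 0.862 (0.744 to 0.999) for *oct91*. The intervals of *ventx2.1* and *ventx2.2* (6.33 to 8.63) both lay above that of *ventx1.2* (3.92 to 5.69). *ventx3.2* and *ventx1.1* could not be separated. At 7.0 hpf the highest ratio was that of *ventx2.2*, 10.6 (8.80 to 12.9), with 9.25 (7.56 to 11.4) for *ventx2.1*. The ratio of *ventx2.2* was lower at 8.0 than at 7.0 hpf beyond counting error. So were those of *ventx3.2*, 4.47 (3.47 to 5.83) at 7.0 hpf, and *oct91*, 1.45 (1.16 to 1.82). The intervals of the other 4 zygotic genes at these hours overlapped. All these intervals leave out scatter between libraries, and each ratio rests on a single library of each type. In Series 2 the replicates at 6.5 hpf differed by a factor of 1.25 for *ventx2.2*, 1.26 for *ventx3.2* and 1.80 for *oct91*. The late slope difference, Ribo-Zero minus polyA+, was not called for these genes (-0.60, -0.59 and 0.11 per hour). A change from 7.0 to 8.0 hpf was not tested by itself. The median of all genes was 0.755 at 7.0 hpf and 0.684 at 8.0 hpf, where the 95th percentile was 3.81.

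The genes most like each zygotic member were sought by the mean of the Pearson correlations over the 15 time points of Series 2 and the 19 of Series 3 polyA+ RNA, on log2 of reads plus 10. Such correlations describe shared timing, and the points share libraries. *foxa4*, a forkhead gene of the dorsal midline, was closest to *ventx1.1* (r = 0.998) and to *ventx1.2* (0.998) and second for *ventx3.2* (0.995). *tfap2a*, an ectodermal factor, was closest to *ventx2.1* (0.995) and among the 3 closest to *ventx1.1* and *ventx3.2*. The mesendoderm genes *eomes* (0.996), *lefty* (0.994) and *mix1* (0.989) were closest to *ventx3.1*.

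*wnt8a*, a ventrolateral signal, was closest to *ventx3.2* (0.997), and *bmp4*, the ventral ligand upstream of the family, to *ventx2.2* (0.992). By Spearman correlation, however, *bmp4* stood only at position 310 for *ventx2.2*. The next for *ventx2.2* were *foxi4.2* and *foxd4l1.1* (0.991 each). *oct91* was followed by *c22orf36* (0.996), *znf750* (0.995) and *chrd* (0.994), which encodes the BMP antagonist Chordin, and *znf750* and *chrd* also stood among the 3 for *ventx1.2*, as *znf750* did for *ventx1.1*. *dlx5* and *tbx2* (0.994 each) completed those for *ventx2.1*. Ventral and dorsal genes thus both stood among them. By Spearman correlation the same genes stood at positions 1 to 310, so the order is loose. The likeness of members to each other was of the same size, 0.996 between *ventx1.1* and *ventx1.2* and 0.991 between *ventx2.1* and *ventx2.2*, and was lowest among the 7 between *oct91* and *ventx3.1* (0.945).

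Genes of the BMP pathway, a list that also holds targets such as *msx1*, rose with the *ventx* family in part. In the Series 2 rise 16 of 21 tested genes were higher and 5 lower, with a median log2 change of 4.03 against 0.08 over all genes, of which 41.3% were higher and 37.7% lower. The largest rises were those of *admp*, a BMP-like ligand of the organizer (0 reads early, 3650 to 3931 late), and *msx1*, a BMP target (0 early, 2810 to 3558 late). The largest falls were those of *smad9*, a signal transducer (135 to 162 reads early, 31.0 to 72.8 late, log2 change -1.40), and *id2*, an inhibitor of helix-loop-helix factors (3492 to 4740 early, 1230 to 1587 late, -1.22). The Series 3 polyA+ rise had 9 of 17 higher and 2 lower, with a median of 1.08 against 0.06 (29.6% and 23.7% of all genes). The Ribo-Zero rise had 1 of 17 higher and 0 lower, with a median of 0.31 against -0.01 (0.616% and 0.139% of all genes), and 10 had an unadjusted p under 0.05. Of the tested genes, 3 in each polyA+ rise and 2 in the Ribo-Zero rise were at 0 counts early, *admp* and *msx1* among those of Series 2. These genes, like any others near 0 counts early, passed the filter only through the late libraries. They could be called only as higher, so their calls add nothing to these counts. In the late change of Series 2, 15 of 21 were higher and 1 lower, with a median of 1.28 against -0.03 (32.6% and 34.7% of all genes).

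Of genes known as partners of Oct4-class factors or regulators of pluripotency, 10 of 18 were higher and 4 lower in the Series 2 rise, with a median of 1.82, beside 41.3% and 37.7% of all genes. *sox2*, the partner of OCT4 in mammalian stem cells, went from 6.78 to 8.62 reads early to 6189 to 6850 reads late, and *foxd3* from 0.784 to 1.63 to 480 to 793 reads. *gmnn*, which encodes the replication licensing inhibitor geminin, fell by 1.80 on the log2 scale (21610 to 24977 reads early, 5088 to 6445 late). *klf2*, a Krüppel-like factor, fell by 1.75 (6057 to 6441 early, 1331 to 1731 late), and was not called in the Series 3 polyA+ rise (-0.03, edgeR adjusted p = 0.933). The Series 3 polyA+ rise had 10 of 15 higher and 1 lower, with a median of 1.58, beside 29.6% and 23.7% of all genes, and there *gmnn* rose by 0.68 (edgeR adjusted p = 0.0028). The Ribo-Zero rise had 1 of 17 higher and 0 lower, with a median of 0.31, beside 0.616% and 0.139% of all genes. Of the tested genes, 2 in the Series 3 polyA+ rise and 1 in the Ribo-Zero rise were at 0 counts early. *foxd3* had 4 counts over the early window of Series 2. Such genes passed the filter only through the late libraries and could be called only as higher, so their calls add nothing to these counts. The late change had 7 of 18 higher and 3 lower, with a median of 0.21, near the 32.6% of all genes that were higher, where 34.7% were lower.

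Dorsal organizer genes, which Ventx proteins keep off on the ventral side, rose in the same windows. In Series 2 all 12 tested were higher and 0 lower, beside 41.3% and 37.7% of all genes, with a median of 11.7, or 10.4 with the 4 genes at 0 counts early set to the limit of 3 counts. *foxa4* went from 0 to between 8480 and 8678 reads, and *chrd* from at most 0.784 to between 7803 and 8321 reads. The Series 3 polyA+ rise had all 11 tested higher, beside 29.6% of all genes, with a median of 11.8, or 8.97 with 7 genes at that limit. In both series the genes at or near 0 counts early passed the filter only through the late libraries. *chrd*, with 1 count over the early window of Series 2, was among them. Such genes could be called only as higher, so their calls add nothing to these counts. Of 9 tested in the Ribo-Zero rise 2 were higher, beside 0.616% of all genes, with a median of 7.58, or 4.51 with 4 genes at the limit. The genes at or near 0 counts early could be called only as higher there too, so their calls add nothing to that count. Of 13 in the late change 9 were higher and 2 lower, beside 32.6% and 34.7% of all genes, with a median of 1.21. Whole embryos were pooled, so side-specific differences were not measured here.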

How the data were processed

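RNA-seq counts of whole *Xenopus tropicalis* embryos were used. Reads of 39 bp in Series 1 and 2 and of 50 bp in Series 3 were aligned by the authors with Bowtie 0.12.7 to a transcript set that also held curated genes, ribosomal RNA and the mitochondrial genome. Reads hitting several genes were dropped before the deposited counts were taken. The deposited normalised signal values equal each count divided by the library total without the ribosomal row and multiplied by 25000000, and levels are given on that scale. Rows that are not genes made up 0.0836% to 35.1% of the counts of a library and were left out of tests, and 0 sample columns went unused.

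Tests were fitted over all genes by the quasi-likelihood test of edgeR 4.0.16 (R 4.3.3) with TMM normalisation and Benjamini-Hochberg adjusted p under 0.05. A gene needed at least 10 counts in at least 3 libraries of the fit, 4 of 8 where library types were compared and 2 where Series 1 was compared with Series 2. In the rises, a gene at or near 0 counts early passes this filter only through the late libraries. Such a gene, member or list gene, can be called only as higher. Changes of genes at 0 counts depend on the prior count, so bounds against 3 counts over the early window are given instead. Intervals of ratios are exact binomial and cover counting error only. Alternatives were RLE or total scaling, no filter, DESeq2 1.42.0, each library left out, another chance step or fold threshold of the run rule, and the time point as a block. Filters of 2 libraries were added after the data were seen. PolyA+ and Ribo-Zero libraries of a time point share their RNA, as the study states, so time points pair the libraries. How far each library lay from its type's mean correlated within a time point between 0.0415 and 0.0632 over 11521 genes from 0 to 3.0 hpf (other pairings -0.0892 to 0.0403), and between 0.507 and 0.706 over 11382 genes from 5.0 to 8.0 hpf (other pairings -0.651 to 0.537).

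Scaling to library totals moved the median log2 change of all genes from 0.08 to -0.19 in the Series 2 rise, from 0.06 to -0.21 in the Series 3 polyA+ rise, and from -0.01 to -0.11 in the Ribo-Zero rise. The percent of called genes that were higher went from 52.4 to 78.6 (Series 1 slope), 50.5 to 75.7 (Series 3 slope), 55.6 to 40.9 (Series 3 polyA+ rise), 48.5 to 33.2 (late change), 49.5 to 60.2 (Series 1 against Series 2), 46.6 to 24.4 (early) and 30.1 to 50.5 (late slope difference). The members, the gene lists and the tests were chosen with earlier results of these data known. Named genes are all members, the 3 named genes most like each member with an onset, and the 2 largest called rises and falls of each list in the Series 2 rise. The fits were tested on simulated data. The rest was done in Python 3.11.15 (pandas 2.3.3, numpy 2.4.6, matplotlib 3.10.9, scipy 1.17.1).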

Additional observations from a re-analysis of the deposited data

Results flagged for a closer look

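The slope of *oct25* over 0 to 3.0 hpf in Series 3 differed between library types by -0.63 per hour on the log2 scale (Ribo-Zero minus polyA+, edgeR adjusted p = 0.0258), a difference between the 2 kinds of library made from the same RNA. The polyA+ values were 294, 322, 829 and 1473 reads and the Ribo-Zero values 1071, 1102, 1197 and 1306 reads at 0, 1.0, 2.0 and 3.0 hpf. The adjusted p ranged from 5.6e-04 to 0.222 over its 13 alternatives, and the sign was negative in all 13.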

How the results depend on the processing

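Leaving out a library of the late window took the called members from 9 to 2 in the Series 2 rise and the Series 3 polyA+ rise (range 2 to 9), because genes at 0 counts early then reach 10 counts in only 2 libraries and are not tested. With a filter of 2 libraries, chosen after seeing the data, 9 members were called without each late library. In the Ribo-Zero rise, where 0 were called, 8 were called with no filter on low counts and 5 with DESeq2, and leaving out a library gave 0 to 2, or with a filter of 2 libraries 0 to 9. The cause was not tested. For the cleavage slopes 1 member was called, with 1 to 2 when a library was left out in either series and 2 with RLE normalisation in Series 3. The slope of *oct60* in Series 1 was 0.073 per hour with libraries scaled to their totals and -0.58 to 0.11 with a library left out. The early slope difference between library types was called in 2 members with DESeq2, in 0 with the time point as a replicate block, and in 0 to 2 with a library left out. The late difference was called in 1 member with that block and in 0 to 2 with a library left out. Of the 7 zygotic members, whose late slope differences had standard errors of 0.67 to 1.00, all 7 changed sign under at least 1 alternative (-2.22 to 2.2 per hour, lowest adjusted p = 0.0915). The call of *oct60* in Series 1 against Series 2 and the number of onsets, 7 in Series 2 and in Ribo-Zero RNA, held under the alternatives run, and 6 onsets in Series 3 polyA+ RNA became 7 with the smaller chance step and with TMM scaled reads, *ventx3.1* being added in both. Depth limits the late Series 3 values most, since 0 counts allow up to 19.5 reads in the Ribo-Zero library of 8.0 hpf and 16.7 reads in the polyA+ library of 8.5 hpf.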

Other observations

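Trace counts of zygotic members appeared before their onset in a few libraries. *oct91* had 1, 2 and 1 counts at 1.5, 2.5 and 3.0 hpf of Series 1, and 8 counts over the libraries from 2.5 to 3.5 hpf of Series 2. *ventx2.2* had 2 counts at 3.5 hpf and *ventx3.1* had 4 counts at 4.0 hpf of Series 2. *ventx2.1* had 1 count in the Ribo-Zero library of 0 hpf. In Series 3 polyA+ RNA no zygotic member had a count before 5.0 hpf.

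The replicate libraries of Series 2 differed in a common direction for the Oct4-class genes. At 6.5 hpf the first replicate was higher by a factor of 1.37 for *oct25*, 1.41 for *oct60* and 1.80 for *oct91*, and by 1.17 and 1.21 for *ventx1.1* and *ventx1.2*, by 1.03 for *ventx3.1* and 1.26 for *ventx3.2*, whereas *ventx2.1* and *ventx2.2* were lower in it by factors of 1.50 and 1.25.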
